A study of Solanum lycopersicum with 4 samples.

Results

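The genes described are the small heat shock protein (HSP20) genes of tomato (Solanum lycopersicum) together with HSP101, followed in RNA sequencing of fruit. They were chosen by gene identity from a list of 10 Solyc IDs that names 8 HSP20 genes, HSP101 (Solyc03g115230) and the heat stress factor gene HSFA2. Values for 9 of the 10 IDs, out of 34675 genes in the deposited table, were used, and HSFA2 was not analysed here. Names and roles follow that list, because the deposited table pairs none of these IDs with a gene name, and the chromosome of each gene was read from the digits of its ID.

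Small heat shock proteins are chaperones that bind unfolding proteins without using ATP and keep them from clumping. HSP101 is a ring-shaped ATP-driven chaperone of the Hsp100/ClpB family that pulls proteins back out of such clumps. Plants switch both on strongly in heat, largely through heat stress transcription factors, and in tomato several HSP20 genes are also known to be active in ripening fruit without heat.

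All 4 libraries came from fruit of the cultivar Ailsa Craig, with no treatment named. The transgenic group held 1 library from line D7 (replicate 1) and 1 from line C2 (replicate 2), both carrying the citrus gene CsMYBF1, which encodes a MYB transcription factor. The wild-type group held 2 libraries of plants without it. The 4 libraries are called D7, C2, WT1 and WT2 from here on. No source used here gives the promoter driving CsMYBF1, the fruit stage, the growth temperature or whether WT1 and WT2 are separate plants. The p-values therefore reflect the spread among these samples alone. Between WT1 and WT2 that spread may be technical, and between D7 and C2 it also holds any difference between the lines. The test used, limma, draws the variance of each gene towards that of other genes of similar level. For genes with wide gaps within a group, standard errors and intervals are thus narrower than their own libraries alone would give. Levels are RPKM, the authors' reads per kilobase of gene scaled to library size. Library totals solved from the RPKM steps ran from 12916160 reads (C2) to 21403774 reads (WT1). The identity of the tissue was not checked against marker genes, for want of gene names. In bulk samples like these, fewer cells of a type and less RNA per cell cannot be told apart.

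The comparison asked how these chaperone genes differ between fruit with CsMYBF1 and wild-type fruit. Of the 8 HSP20 genes, 1 was called lower in transgenic fruit and 0 higher (limma on log2(RPKM + 1), adjusted p below 0.05), where 2.09% of the 16876 genes tested were called lower and 18.8% higher. The gene called lower, Solyc06g076540, had a recovered length of 465 bases. Of the 1320 genes tested of at least 400 and under 600 bases, 6.52% were called lower and 7.12% higher. Over all genes the balance depends on the scaling. The 352 called lower and 3179 higher became 926 and 498 under median-of-ratios scaling. Under the gene length correction they became 0 and 18. The summed HSP20 level differed more between libraries of the same group than between the groups. Summed over the 8 HSP20 genes, RPKM came to 783 in D7, 3294 in C2, 3224 in WT1 and 1679 in WT2. C2 and WT1 were nearly level at the top, and D7 was the lowest of the 4, so the groups overlapped. Means were 2039 ± 1775 RPKM for transgenic and 2451 ± 1092 RPKM for wild-type fruit (SD, n = 2 each), a 1.2-fold difference, while the lines differed from each other by 4.2-fold and the wild-type libraries by 1.92-fold. As a share of all reads, the 8 genes took 0.0383% in D7 (95% Wilson interval 0.0374 to 0.0393), 0.156% in C2 (0.154 to 0.158), 0.152% in WT1 (0.151 to 0.154) and 0.0838% in WT2 (0.0822 to 0.0854). These intervals cover counting error only. The library with the highest sum was the shallowest of the 4 and the next highest was the deepest.

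**Figure D1:**
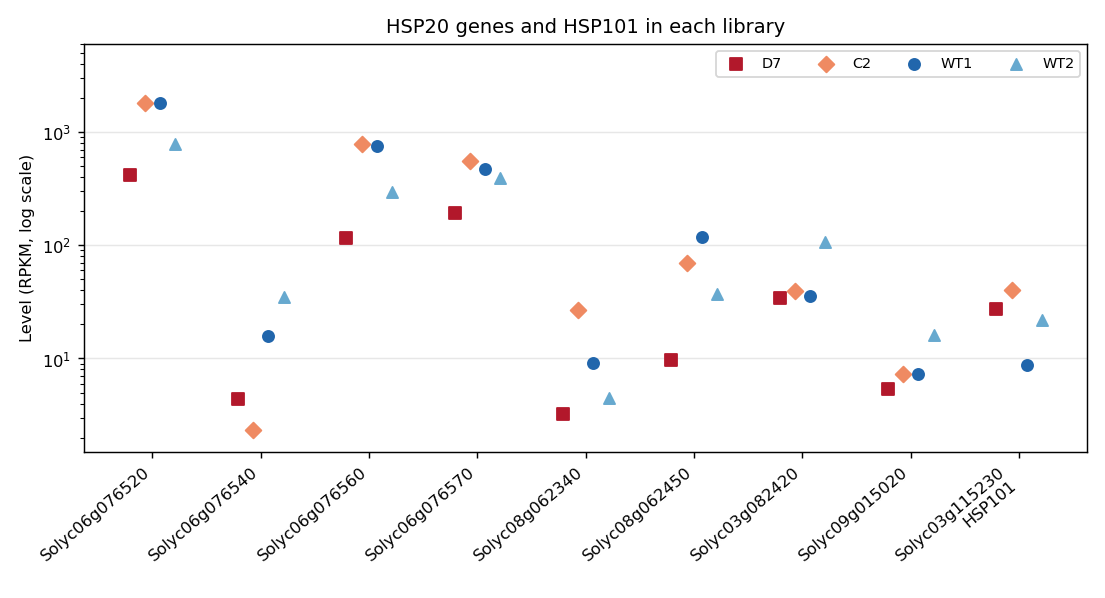
Level of each of the 9 genes (RPKM, log axis) in the 4 libraries, each point being 1 library. In 5 HSP20 genes D7 is lowest and C2 and WT1 are highest, whereas Solyc06g076540 has both lines below both wild-type libraries.

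Most of the HSP20 signal came from an array of 4 members whose IDs run from Solyc06g076520 to Solyc06g076570 on chromosome 6. Each of these 4 models had a recovered length of 465 bases. Solyc06g076520, the most abundant, reached 1807 RPKM in C2 and 1813 RPKM in WT1, but only 416 RPKM in D7 and 788 RPKM in WT2. It ranked 75 among all genes by its mean over the 4 libraries. C2 matched WT1, and D7 was below both wild-type libraries, so the groups overlapped. The log2 fold change, transgenic over wild type, was -0.46 ± 0.76 (SE, the standard error; limma adjusted p = 0.67), which missed the threshold. Its 95% interval of -2.32 to 1.40 spans changes of more than 2-fold in either direction.

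Solyc06g076560 likewise had C2 and WT1 on top and D7 lowest, with a wider spread. Its level was 116 RPKM in D7, 789 RPKM in C2, 752 RPKM in WT1 and 296 RPKM in WT2. The lines were 6.78-fold apart, and the group difference did not pass the test (log2 fold change -0.63 ± 0.93 SE, limma adjusted p = 0.63). Solyc06g076570 stood at 194 and 553 RPKM in D7 and C2 and at 472 and 396 RPKM in wild type. For this gene the wild-type libraries were within 1.19-fold of each other, whereas C2 was 2.85-fold above D7 (log2 fold change -0.40 ± 0.52 SE, limma adjusted p = 0.59). Dropping D7 turned the fold changes of Solyc06g076520, Solyc06g076560 and Solyc06g076570 positive, at 0.60, 0.74 and 0.36, and dropping WT1 did so for the first 2, at 0.14 and 0.04. None of these passed the test.

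Solyc06g076540 differed from the rest of the array and was the 1 member that passed the test. D7 held 4.38 RPKM (31 reads) and C2 2.33 RPKM (14 reads), whereas WT1 held 15.8 RPKM (157 reads) and WT2 34.8 RPKM (212 reads). Both lines were below both wild-type libraries, and the highest value was in WT2, whereas the other 3 array members were lower in WT2 than in WT1. The transgenic mean of 3.35 ± 1.45 RPKM was 7.54-fold below the wild-type mean of 25.3 ± 13.5 RPKM (SD, n = 2 each). The gene fell by 2.53 on the log2 scale, with a standard error of 0.48 (limma, adjusted p = 0.031). Its log2 gaps were -0.69 for C2 minus D7 and -1.09 for WT1 minus WT2. Median absolute gaps over genes averaging 5 RPKM or more were 0.29 and 0.44. The standard error thus draws on genes with smaller gaps than its own. The call did not hold in every fit. Without D7 the adjusted p was 0.16, without C2 it was 0.19, without WT2 it was 0.075 and without WT1 it was 0.038, while the log2 fold change stayed between -3.08 and -1.99. With the gene length correction the log2 fold change was -2.43 (adjusted p = 0.12), and blocking on the replicate number left it at -2.53 (adjusted p = 0.063).

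The make-up of the array also varied between libraries. Solyc06g076520 held 56.9% of the reads of the 4 genes in D7, 57.3% in C2, 59.4% in WT1 and 52.0% in WT2. The share of Solyc06g076570 was 26.5% in D7 and 26.2% in WT2, where the array was low, and 17.6% in C2 and 15.5% in WT1, where it was high. Solyc06g076560 ran the other way, at 15.9% and 19.5% in the libraries with a low array and 25.0% and 24.6% in those with a high one. Solyc06g076540 made up 0.599% in D7 (95% Wilson interval 0.422 to 0.849) and 0.074% in C2 (0.0441 to 0.124), against 0.517% in WT1 (0.442 to 0.604) and 2.30% in WT2 (2.01 to 2.62). Taken as a share of the array, D7 therefore overlapped with WT1, which the RPKM values did not. Where array genes are near-identical in sequence, the split of reads among them depends on how reads with several matches were handled. No source used here states that handling, so single levels within the array are less certain than their sum.

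**Figure D2:**
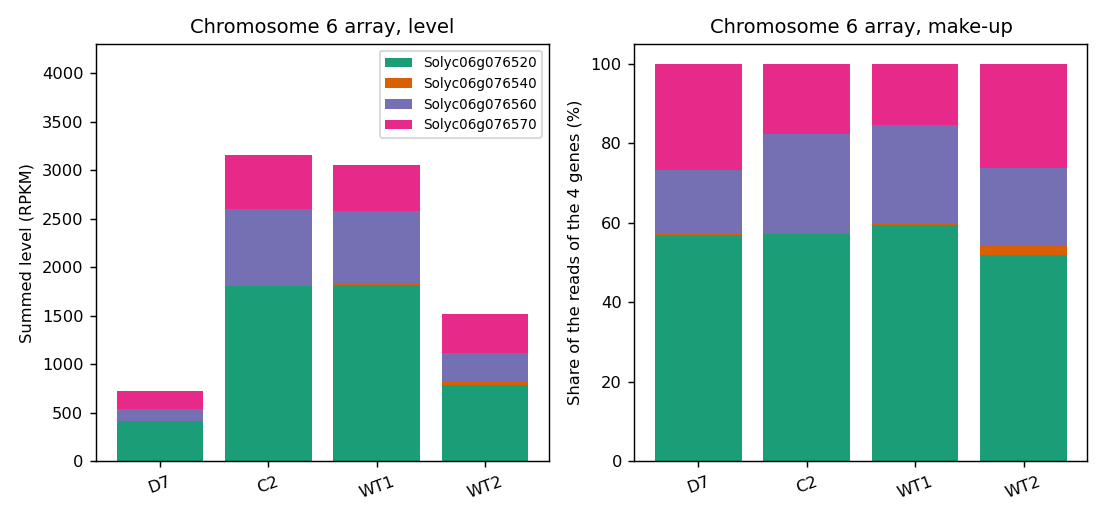
Left, summed level (RPKM) of the 4 chromosome 6 HSP20 genes in each library; right, share of their reads (%) held by each gene. The sum was 731 RPKM in D7, 3151 RPKM in C2, 3053 RPKM in WT1 and 1515 RPKM in WT2, and the share of Solyc06g076570 was larger in the 2 libraries with the low sums.

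Both HSP20 members on chromosome 8 also had C2 and WT1 on top and D7 lowest, at lower levels than most of the array. Solyc08g062450 (recovered length 477 bases) stood at 9.77 RPKM in D7, 69.5 RPKM in C2, 119 RPKM in WT1 and 37.3 RPKM in WT2. The lines differed by 7.11-fold and the wild-type libraries by 3.18-fold, and the groups overlapped (log2 fold change -1.30, 95% interval -3.65 to 1.06, limma adjusted p = 0.35). Solyc08g062340 (773 bases) stood at 3.23 RPKM in D7, 26.9 RPKM in C2, 9.07 RPKM in WT1 and 4.44 RPKM in WT2. C2 was the highest and D7 the lowest of the 4, an 8.35-fold gap between 269 and 38 reads. This was the 1 HSP20 member with a positive log2 fold change, 0.55 ± 0.89 SE (limma adjusted p = 0.67), and without C2 it turned to -0.81.

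The remaining HSP20 members, on chromosomes 3 and 9, were high in WT2 alone. Solyc03g082420 (985 bases) stood at 34.4 and 39.2 RPKM in D7 and C2 and 35.7 RPKM in WT1, against 106 RPKM in WT2. The other libraries lay within a narrow band, and WT2 was 2.98-fold above the other wild-type library. The log2 fold change of -0.73 ± 0.52 SE (limma adjusted p = 0.33) rested on that library. Without WT2 it was 0.04, and without WT1 it was -1.51 with an adjusted p of 0.039. Solyc09g015020 (465 bases) had the same shape at 5.37, 7.33, 7.23 and 16.2 RPKM in D7, C2, WT1 and WT2, from 38 to 99 reads per library (log2 fold change -0.71 ± 0.45 SE, limma adjusted p = 0.27). This value too rested on the wild-type libraries, being -0.18 without WT2 and -1.24 without WT1.

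The HSP20 genes were thus sorted into 2 sets by library order, noticed in these data and therefore given as a description. In 5 of the 8, C2 and WT1 were the top pair, WT2 came next and D7 was lowest, an order found in 2.63% of all 16876 genes tested. The other 3, Solyc06g076540, Solyc03g082420 and Solyc09g015020, were highest in WT2, as were 16.5% of all genes tested. Beyond that these 3 did not share an order. In Solyc06g076540 C2 was lowest and WT1 lay above both lines. In Solyc03g082420 and Solyc09g015020 D7 was lowest and WT1 lay between the lines. The gap between the lines exceeded 2-fold on the log2(RPKM + 1) scale for 5 of the 8 genes, against 8.46% of the 12286 genes averaging 5 RPKM or more. A gap of that size between the wild-type libraries was found for 6 of the 8, against 14.3%. A gap between the lines as large as that of Solyc06g076560 was reached by 0.57% of these genes, and one as large as that of Solyc06g076520 by 1.51%. Genes of 1 library share its RNA and its depth, so the members are not independent of each other.

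**Figure D3:**
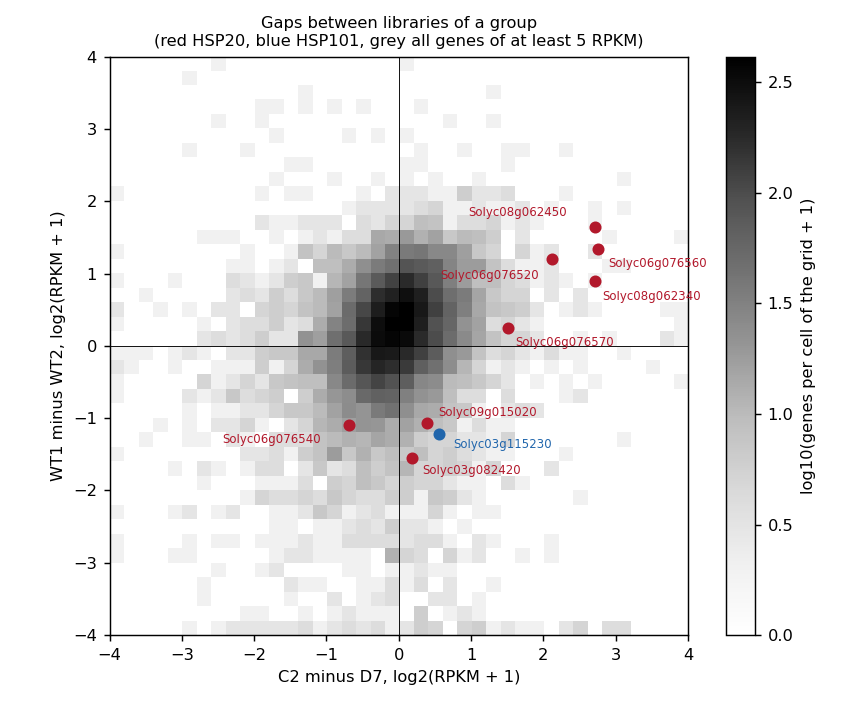
Difference between C2 and D7 (x axis) and between WT1 and WT2 (y axis) in log2(RPKM + 1), for the 9 genes (points) and all 12286 genes averaging 5 RPKM or more (grey grid, with values beyond 4 drawn at the edge). The 5 HSP20 genes at the upper right have line gaps of 1.51 to 2.75 on the log2 scale, against a median absolute gap of 0.29 over all these genes.

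HSP101 (Solyc03g115230, 3194 bases) had the library order of neither set. Values of 27.3 RPKM in D7 and 40.5 RPKM in C2 faced 8.76 RPKM in WT1 and 21.7 RPKM in WT2. Both lines were above both wild-type libraries, with WT1, where the HSP20 array was high, at the bottom. The mean was 33.9 ± 9.33 RPKM in transgenic and 15.3 ± 9.18 RPKM in wild-type fruit (SD, n = 2 each), a 2.22-fold difference. The log2 fold change of 1.20 (standard error 0.48) did not pass the test (limma, unadjusted p = 0.047, adjusted p = 0.12). It was 0.59 without WT1 and 1.81 without WT2, neither past the threshold. Gene length moved with this value: the 1508 genes tested of at least 2500 and under 4000 bases had a median log2 fold change of 1.44. Of these genes, limma called 57.8% higher and 0% lower at an adjusted p below 0.05. Once each library's trend with length was taken out, the value for HSP101 turned to -0.25 (standard error 0.56, adjusted p = 0.82).

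Across the 9 members, limma called 1 lower and 0 higher, and 1 member, HSP101, was higher at an unadjusted p below 0.05, as were 34.1% of all genes tested. With voom on recovered reads 1 member was again called lower (1.94% of all genes) and 0 higher (21.0% of all genes). The groups did not overlap for 2 members, HSP101 with the transgenic libraries higher (50.7% of all genes tested) and Solyc06g076540 with them lower (17.4% of all genes tested). The median log2 fold change was -0.63 over the 9 members and -0.67 over the 8 HSP20 genes, against 0.49 over all genes tested. Negative values were found for 7 of the 8 HSP20 genes and for 33.4% of all genes. Length moved with this contrast too, since the median was -0.34 for the 1320 genes of at least 400 and under 600 bases. With the length correction the HSP20 median was -0.57 and that of all genes -0.03, and with median-of-ratios scaling they were -1.28 and -0.05. Quantile normalization brought the medians closer together, at -0.20 for the 9 members and 0.03 for all genes. Without D7, the median of the members turned to 0.36.

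**Figure D4:**
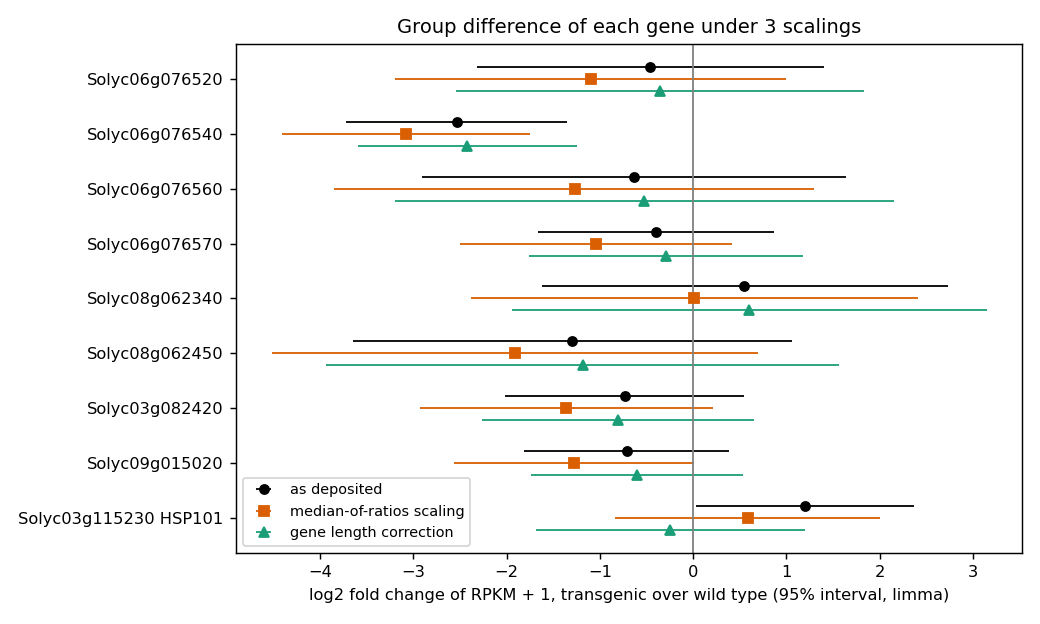
Log2 fold change of RPKM + 1, transgenic over wild type, with its 95% limma interval, for each gene as deposited, with median-of-ratios scaling and with the gene length correction. The intervals are not adjusted for the number of genes tested. Solyc06g076540 lies below 0 with its whole interval in all 3, with limma adjusted p of 0.031, 0.049 and 0.12 in that order. HSP101 moves from 1.20 (0.03 to 2.37, limma adjusted p = 0.12) to 0.59 and -0.25.

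Few genes with IDs next to the HSP20 members were high enough to be tested. Of 23 other rows whose IDs begin with Solyc06g0765, Solyc08g0623 or Solyc08g0624, 9 were at 0 in every library and 6 were tested. In limma 0 were called higher and 0 lower, where 18.8% and 2.09% of all genes tested were. At an unadjusted p below 0.05, 2 were higher and 0 lower (34.1% and 7.35% of all genes tested). With voom 1 was called higher and 0 lower (21.0% and 1.94% of all genes). Counts over 6 genes are too few to be set against these shares. Solyc06g076580, next to the array and with a recovered length of only 132 bases, stood at 58.2 RPKM in D7, 111 RPKM in C2, 159 RPKM in WT1 and 119 RPKM in WT2. D7 was again the lowest, but the line gap was smaller than for Solyc06g076520, Solyc06g076560 and Solyc06g076570 (log2 fold change -0.76 ± 0.39 SE, limma adjusted p = 0.19). On the other side of the array, Solyc06g076510 stood at 13.3, 29.0, 39.7 and 17.9 RPKM in D7, C2, WT1 and WT2. Its libraries ran in the same order as those of Solyc06g076520, so that order was not confined to the listed genes (log2 fold change -0.42 ± 0.53 SE, limma adjusted p = 0.57). No source used here gives the product of Solyc06g076510. Of the other neighbours tested, Solyc06g076590 had a log2 fold change of 1.23 ± 0.34 SE (limma adjusted p = 0.052). That of Solyc08g062420 was 0.91 ± 0.32 SE (limma adjusted p = 0.088). Solyc08g062330 and Solyc08g062490 were at -0.09 and -0.61, both with C2 lowest.

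Likeness to Solyc06g076520 was measured as the distance between log2(RPKM + 1) values over the 4 libraries, each gene centred on its own mean. The closest other genes were Solyc03g095900, at a distance of 0.17, and Solyc09g007270, at 0.28. Solyc03g095900 stood at 172, 652, 658 and 287 RPKM in D7, C2, WT1 and WT2. Among the members, Solyc06g076560 was closest, at 0.49 and rank 7 of all genes tested. Solyc06g076570 ranked 61, Solyc08g062450 ranked 128 and Solyc08g062340 ranked 240. The rest were far from it, with Solyc09g015020 at rank 6620, Solyc03g082420 at 11151, HSP101 at 13438 and Solyc06g076540, of the same array, at 16161. With 4 libraries such likeness is a description of these samples.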

How the data were processed

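RNA from tomato fruit was poly(A)-selected, fragmented and primed with random hexamers, per the labels' protocols, with no step named that marks the strand. The values are RPKM computed and deposited by the authors, 1 column per library, matched to samples by line name or replicate number. The submitters' processing notes list HTSeq without a version. No source used here names the aligner, genome build or annotation, or how multiply matching reads were handled.

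Library totals and the smallest gene length at which all values give whole reads (60 to 20000 bases, tolerance 0.001 reads) were solved from the RPKM steps. Of 24422 genes above 0, 99.99% were solved, against 8.4% with wrong totals. On simulated data 93.2% of 5916 genes gave the right reads. Recovered lengths are lower limits.

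The test was limma 3.58.1 (R 4.3.3, eBayes with trend) on log2(RPKM + 1) of the 16876 genes averaging 1 RPKM or more, with Benjamini-Hochberg adjustment over all of them and a threshold of 0.05. All 9 members passed the filter. Fold changes on this scale understate those of low genes. In simulated data of 16852 genes, with a spread between libraries set by hand, the fit called 28.4% of 2-fold and 100% of 8-fold changes. It also called 14.2 unchanged genes per run. The simulated spread was the same for every gene, and no trend with length was put in. These rates therefore do not carry over to HSP20 genes with wide gaps between libraries of a group. At these depths 3 reads in 1 kilobase are 0.14 to 0.232 RPKM.

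All 9 members are named, with ID neighbours of the chromosome 6 and 8 members and the 2 genes most like the most abundant HSP20 member. Members and lists were chosen with earlier results of these data known. Other heat shock genes were not listed, since no table pairs the IDs with products. The alternatives were other pseudocounts, filters, scalings and eBayes settings, a length correction (loess, span 0.3), voom, a replicate block and omission of each library in turn. A crossed block was added after seeing the data.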

Additional observations from a re-analysis of the deposited data

How the results depend on the processing

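The call of 1 member lower became 0 with no filter, quantile normalization, the replicate block and the gene length correction, 2 with the crossed block, and 0 to 2 on leaving out a library. Members called higher stayed at 0 under all 16 alternatives. Over the 15 alternatives other than the crossed block, Solyc06g076540 kept its direction in all and its call in 8, with an adjusted p of 0.026 to 0.19. Solyc09g015020 kept its direction in all 16 and was not called in any. With quantile normalization the log2 fold changes of Solyc06g076520, Solyc06g076570 and Solyc08g062340 turned to 0.17, 0.09 and -0.12. Omitting single libraries moved the log2 fold change over -1.52 to 0.60 for Solyc06g076520, -2.01 to 0.74 for Solyc06g076560, -1.15 to 0.36 for Solyc06g076570, -0.81 to 1.92 for Solyc08g062340, -2.65 to 0.06 for Solyc08g062450, -1.51 to 0.04 for Solyc03g082420, -1.24 to -0.18 for Solyc09g015020 and 0.59 to 1.81 for HSP101. HSP101 turned to -0.25 with the gene length correction. For these changes the cause was not tested. In fits without a library, the one left in its group is taken to vary as the other group does.

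Over all genes, the calls were 3179 higher and 352 lower. Median-of-ratios scaling made them 498 and 926, dropping the filter 11 and 0, quantile normalization 17 and 0, the gene length correction 18 and 0, and the crossed block 4071 and 816. Leaving out a library gave 6 to 3365 higher and 0 to 451 lower. The median over all genes, 0.49 on the log2 scale, was 0.30 with a pseudocount of 5, 0.20 with no filter, 0.03 with quantile normalization, -0.05 with median-of-ratios scaling, -0.03 with the gene length correction, and 0.43 to 0.60 on leaving out a library. That of the members, -0.63, ranged from -1.15 to 0.36 on leaving out a library. No label ties replicate numbers to a shared plant or batch, and deviations of libraries sharing a number had a correlation of -0.16 over genes. The replicate block left 24 genes higher and 0 lower. The crossed block joins D7 to WT2 and C2 to WT1, a pairing chosen from these data that lowers the residual spread, so its calls are no support. The 2 members it called lower were Solyc06g076540 and Solyc08g062450. Depth limits Solyc06g076540, Solyc08g062340 and Solyc09g015020, with as few as 14, 38 and 38 reads in a library.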
